A study of Mus musculus with 7 samples.

Results

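The constitutive proteasome subunit genes are the protein-coding genes with the symbols Psma, Psmb, Psmc or Psmd followed by a number, leaving out the immunoproteasome genes Psmb8, Psmb9 and Psmb10. By this rule 36 of the 53465 genes in the table were members, and 34 of them passed the filter on low counts and were tested. They were measured in bulk tumors of EMT6, a mouse mammary carcinoma line, of which 500000 cells were placed in the mammary fat pad of female BALB/c mice. The 3 EMT6-P tumors were given isotype control antibody and the 3 EMT6-PTR tumors blocking antibody to PD-L1 (αPD-L1). The study calls EMT6-P parental and obtained that line from mice given control antibody. It selected the EMT6-PTR variant from tumors that grew again under αPD-L1. Whether the sequenced tumors were regrown from these lines is not stated. Both antibodies were dosed at 250 μg per mouse every 3 days from day 1 until the institutional endpoint. The groups differ in the antibody given and in the selection of tumors that grew under it, and these cannot be told apart in this comparison. One further library came from a metastasis labelled as resistant, under αPD-L1. It is called PDR in the labels like the EMT6-PTR tumors, with the site not named and the tissue given as breast tumor. The EMT6-PTR variant is 1 selected line. Each library is called a tumor here after its source tissue. The labels do not tie libraries to separate tumors or mice, and the study describes its replicates as technical where nothing else is stated, so that p-values measure the spread between these libraries, which may be technical.

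The proteasome degrades proteins tagged with ubiquitin. Its barrel-shaped 20S core is built from alpha rings, which gate the entry, and beta rings, which hold the proteolytic sites, and the 19S cap recognises ubiquitin, removes it and unfolds the substrate with a ring of ATPases. Interferon exchanges the catalytic beta subunits for immunoproteasome subunits, which changes the peptides offered on MHC class I, and the transcription factor NRF1 (Nfe2l1) raises subunit genes together when proteasome activity is short.

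Estimated counts were 20430110 to 25213472 per library, and the tested members held 433 to 9659 counts each. The members together took 0.511% to 0.532% of all counts in the EMT6-P tumors, 0.487%, 0.358% and 0.407% in EMT6-PTR replicates 1 to 3, and 0.490% in the metastasis. A single gene, CT010467.1, took 13.8% of the counts of EMT6-PTR replicate 2 and 0.433% to 1.35% of those of the other 6 libraries. Values below are CPM (counts scaled to a common library size) after upper-quartile scaling, which is set by the upper range of gene counts and not by the library total. All 5 carcinoma markers (Krt8, Krt18, Krt19, Epcam, Cdh1) were above 0 in every library, but EMT6-PTR replicate 3 had a summed level of 595 CPM against 2103 and 2192 CPM in replicates 1 and 2. Its summed level of 6 fibroblast markers was 21763 CPM, against 4589 and 6912 CPM. In EMT6-P tumors the carcinoma markers summed to 2163 to 2347 CPM and the fibroblast markers to 3760.5 to 5402 CPM. In bulk tumors, fewer cells of a type and less RNA per cell cannot be told apart.

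To compare proteasome mRNA between resistant and parental tumors, every gene was tested between the 3 EMT6-PTR and the 3 EMT6-P tumors. Most subunit genes had lower values in EMT6-PTR tumors, with log2 fold changes from −0.60 to 0.016 and a median of −0.34 over the 34 members, beside 0.025 over all 15645 genes tested. The log2 fold change was below 0 for 33 of 34 members, where 47.7% of all genes were below 0, and the exception was Psmd1 at 0.016. For 23 members every EMT6-PTR value lay below every EMT6-P value, a pattern held by 11.8% of all genes. No member had the reverse pattern, against 9.52% of all genes. An EMT6-P tumor held the highest of the 6 tumor values for 29 members and the lowest for 0. These 2 counts restate the same lower values, and their shares of all genes were not counted.

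None of these differences passed edgeR's test for a single gene. In edgeR's quasi-likelihood test, adjusted over all genes after Benjamini-Hochberg, 0 of 34 members were called at 0.05, as were 0% of all genes, and the members' adjusted p-values ran from 0.421 to 0.97. At an unadjusted p under 0.05, 13 members were lower, against 5.57% of all genes, and 0 were higher, against 5.84%. That count was 3, 4 and 7 when EMT6-P replicate 1, 2 or 3 was left out, where the share of all genes was 1.89%, 2.75% and 2.73%. It was 17, 6 and 17 without EMT6-PTR replicate 1, 2 or 3, against 8.45%, 3.77% and 11.5% of all genes, and 7 with scaling by library totals alone, against 3.89%. The share of all genes thus changed along with the members' count. DESeq2 called 2 members lower (Psmb5, adjusted p = 0.00114, and Psma2, adjusted p = 0.0133), against 0.914% of all genes called lower by that tool, and 15 members were lower at an unadjusted p under 0.05, against 6.03% of all genes. With limma-voom 0 members were called and 13 were lower at an unadjusted p under 0.05, against 6.16% of all genes.

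**Figure D1:**
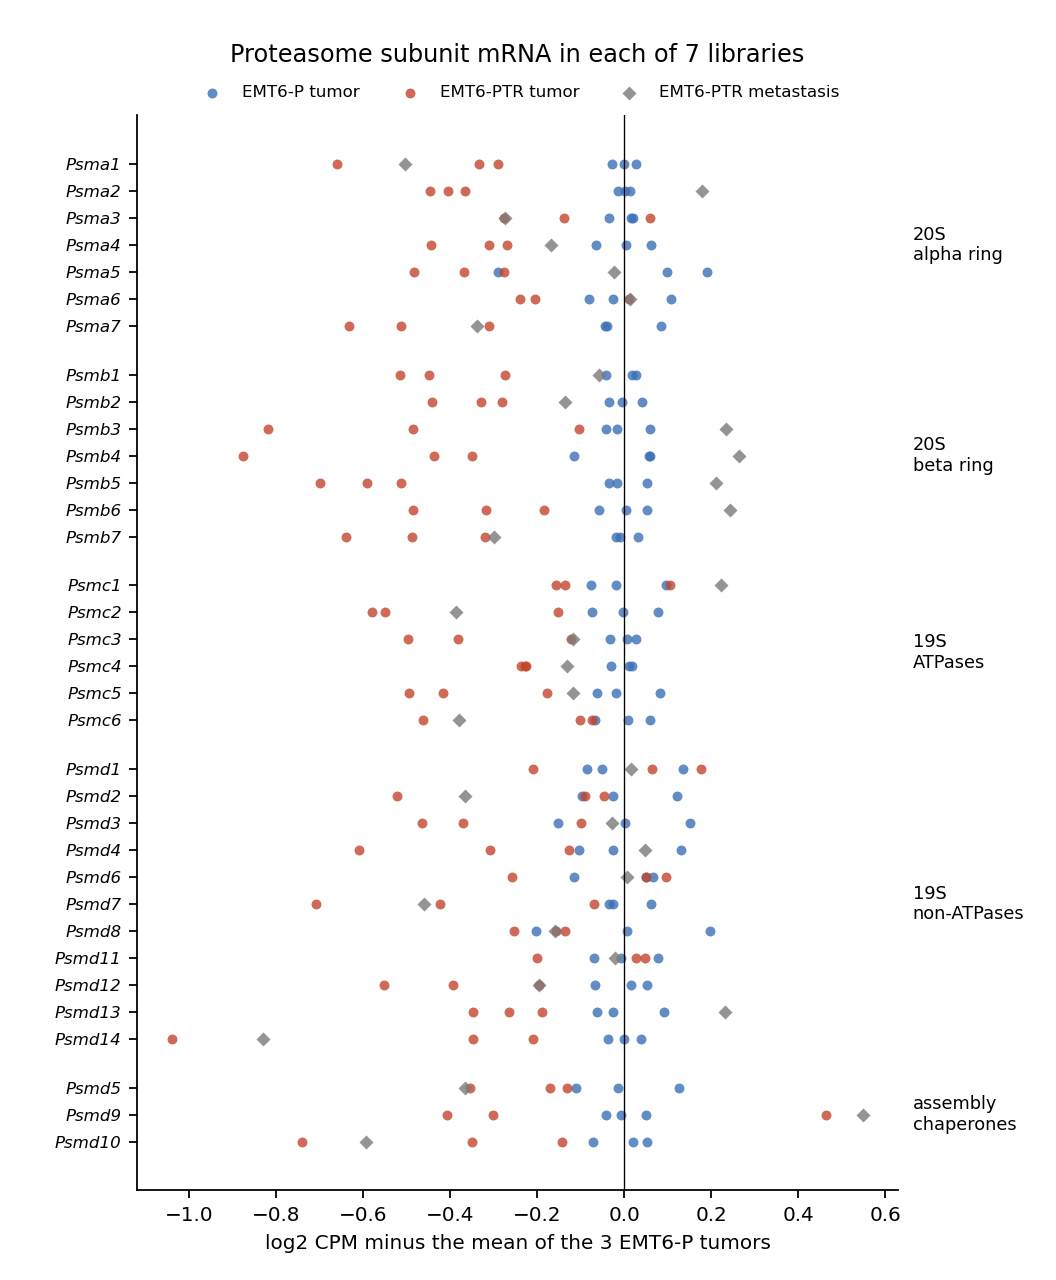
Each point is 1 library, placed by its log2 CPM minus the mean of the 3 EMT6-P tumors (horizontal axis), for each of the 34 tested members grouped by role (rows). Blue points are EMT6-P tumors, red points EMT6-PTR tumors and grey diamonds the metastasis. The red points lie left of all blue points for 23 members, and the widest red spread is at Psmd9 and Psmd14.

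The 7 genes of the alpha ring, which encloses the core and closes its gate, had a median log2 fold change of −0.39. For 4 of them (Psma1, Psma2, Psma4, Psma7) EMT6-PTR was lower without overlap between the groups, against 11.8% of all genes. Psma7 was at 268, 246 and 245 CPM in EMT6-P replicates 1 to 3 and at 203, 177 and 163 CPM in EMT6-PTR replicates 1 to 3. The EMT6-PTR tumors were all lower, with a log2 fold change of −0.48 (SE 0.14, adjusted p = 0.421 in edgeR's quasi-likelihood test). Psma2 was among the members with the smallest p-values. Its values were 157, 156 and 154 CPM in EMT6-P and 118, 115 and 121 CPM in EMT6-PTR tumors, with little spread inside either group, and its log2 fold change was −0.41 (SE 0.11, adjusted p = 0.421 in the same edgeR test). Psma1 was at 130.0, 135 and 132 CPM against 108, 105 and 83.8 CPM, and Psma4 at 217, 207 and 226 CPM against 175, 159 and 179.6 CPM. For Psma5, a single EMT6-P tumor overlapped the other group. Its levels were 287, 269 and 205 CPM in EMT6-P and 207, 195 and 179.7 CPM in EMT6-PTR tumors. Psma3 and Psma6 had the smallest differences of the ring, with log2 fold changes of −0.11 (SE 0.14) and −0.14 (SE 0.14).

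The beta ring had the lowest median of the 5 roles. All 7 of its genes had non-overlapping groups, against 11.8% of all genes that were lower without overlap. At an unadjusted p under 0.05 in edgeR's quasi-likelihood test, 6 were lower, against 5.57% of all genes. The median log2 fold change was −0.44. Psmb5 carries the chymotrypsin-like site, the main target of the inhibitor bortezomib. It stood at 83.7, 78.7 and 79.8 CPM in the EMT6-P tumors and at 56.6, 49.6 and 53.6 CPM in the EMT6-PTR tumors. The gap between the groups exceeded the spread within each, and the log2 fold change of −0.60 (SE 0.12, adjusted p = 0.421 in edgeR's quasi-likelihood test) was the lowest of the 34 members and the only one past 1.5-fold. Psmb7, with the trypsin-like site, was at 174, 180.4 and 175 CPM against 141, 126 and 113 CPM, a log2 fold change of −0.48 (SE 0.13, adjusted p = 0.421 in the edgeR test). Psmb6, with the caspase-like site, was at 132, 128 and 123 CPM against 102, 91.1 and 112 CPM, a log2 fold change of −0.32 (SE 0.13, adjusted p = 0.437 in the edgeR test). Psmb6 thus had the smallest fold change of the beta ring.

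The remaining beta subunits carry no active site. Psmb4 was at 219, 219 and 194 CPM in EMT6-P and 155, 114 and 165 CPM in EMT6-PTR tumors, a log2 fold change of −0.54 (SE 0.18, adjusted p = 0.426 in the edgeR test). Psmb3 was at 150.0, 142 and 139.7 CPM against 103, 81.4 and 134 CPM. In both genes EMT6-PTR replicate 2 was the lowest tumor and replicate 3 came nearest to the parental values. Psmb1 and Psmb2 had log2 fold changes of −0.41 (SE 0.13) and −0.35 (SE 0.12), and neither group overlapped the other. Psmb1 was at 244, 243 and 233 CPM against 176, 168 and 198 CPM and Psmb2 at 110.4, 114 and 108 CPM against 91.2, 81.5 and 88.2 CPM.

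**Figure D2:**
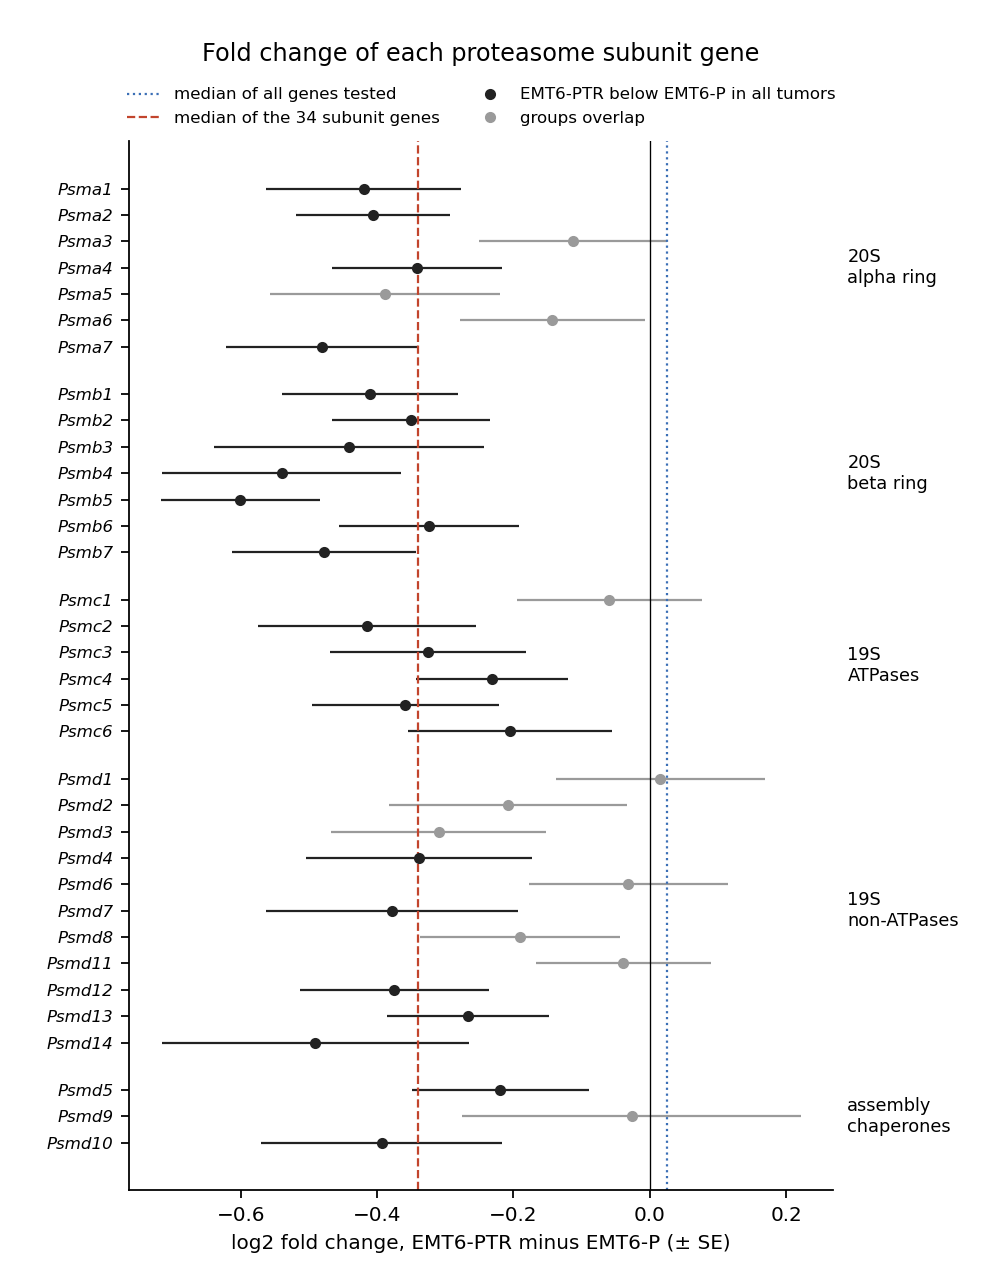
Points are edgeR log2 fold changes (EMT6-PTR over EMT6-P) with bars of 1 SE (horizontal axis) for each tested member (rows, by role). Black points are the 23 members whose groups did not overlap, grey points the other 11, and the dashed and dotted lines the medians of the members (−0.34) and of all genes tested (0.025).

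Because subunit genes are held to share promoter elements, the RefSeq promoter windows, from 250 bases before to 50 after the start, were searched on both strands. Windows were found for 29 of 36 members (31 windows). The CCAAT box (CCAAT) was in 38.7% of the members' windows and in 37.4% of all 32851 windows. The core of the antioxidant response element (TGACNNNGC, N being any base), the kind of element bound by NRF1, was in 16.1% of members' windows and in 12.4% of all windows. These matches were at Psmb5, Psmb6, Psmc6, Psmd9 and Psmd12, so that 2 of the 3 catalytic genes were among them, while Psmb7 had no window and was not searched. No match of one motif overlapped one of another. The stretches of Psmb5 and Psmb6 are shown for that element and those of Psma2 and Psmb3, both lower in every EMT6-PTR tumor, for the CCAAT box. All were chosen after the matches were seen. Each is the 120 bases that end before the first annotated start, 5′ to 3′ on the gene's strand, with the motif in capitals, in build GRCm38.p6. Psmb5 lies at chr14:54618023-54618142 (minus strand), Psmb6 at chr11:70525237-70525356 (plus strand), Psma2 at chr13:14613120-14613239 (plus strand) and Psmb3 at chr11:97703279-97703398 (plus strand).
Psmb5: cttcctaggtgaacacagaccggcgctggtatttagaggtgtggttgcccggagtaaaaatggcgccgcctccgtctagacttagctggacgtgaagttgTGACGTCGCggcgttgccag
Psmb6: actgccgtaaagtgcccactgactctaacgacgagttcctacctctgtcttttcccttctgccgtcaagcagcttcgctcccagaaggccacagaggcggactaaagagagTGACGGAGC
Psma2: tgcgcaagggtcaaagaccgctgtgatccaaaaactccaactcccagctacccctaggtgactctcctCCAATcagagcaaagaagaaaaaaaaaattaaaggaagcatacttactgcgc
Psmb3: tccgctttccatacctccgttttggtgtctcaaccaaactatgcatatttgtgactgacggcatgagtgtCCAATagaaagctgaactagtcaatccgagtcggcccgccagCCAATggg
Measured on the gene's strand from the RefSeq start, which is 0, to the first base of the motif, the element lay at position −47 in Psmb5 and at −9 in Psmb6, and the CCAAT box of Psma2 at −54. The Psmb3 stretch holds 2 CCAAT boxes. A match is a description of letters in the window and not a measured site.

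The 6 ATPases of the cap, which unfold substrates and open the gate, had a median log2 fold change of −0.28. For 5 of them (Psmc2 to Psmc6) EMT6-PTR was lower without overlap between groups, against 11.8% of all genes. Psmc2 had the lowest value, with 141, 133 and 127 CPM in EMT6-P and 120.4, 89.5 and 91.4 CPM in EMT6-PTR tumors and a log2 fold change of −0.42 (SE 0.16, adjusted p = 0.432 in edgeR's quasi-likelihood test). Psmc5 followed at −0.36 (SE 0.14) and Psmc3 at −0.33 (SE 0.14). Psmc4 was the steadiest of the ring, at 129, 129 and 125 CPM against 108, 109 and 109 CPM, a log2 fold change of −0.23 (SE 0.11). In Psmc6 only EMT6-PTR replicate 3 was clearly apart from the parental values of 142, 138 and 130.5 CPM, with EMT6-PTR values of 127, 129.8 and 99.1 CPM. Psmc1 overlapped, at 139, 151 and 134 CPM against 152, 127 and 129 CPM.

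The 11 other subunits of the cap had a median log2 fold change of −0.27, with 10 below 0, against 47.7% of all genes. For 5 (Psmd4, Psmd7, Psmd12, Psmd13, Psmd14) EMT6-PTR was lower without overlap, against 11.8% of all genes. Psmd14, the deubiquitinase of the lid, was at 144, 140.1 and 136 CPM in EMT6-P and at 121, 110.1 and 68.1 CPM in EMT6-PTR tumors. Replicate 3 was far below the other tumors, and the log2 fold change of −0.49 had an SE of 0.23 (adjusted p = 0.455 in edgeR's quasi-likelihood test). Psmd7, the partner of Psmd14 in the lid, was also lowest in EMT6-PTR replicate 3, with 148, 138 and 139 CPM against 135, 106 and 86.6 CPM. The ubiquitin receptor Psmd4 was at 154, 171 and 146 CPM against 143, 103 and 126 CPM, a log2 fold change of −0.34 (SE 0.17). The lid subunits Psmd12 and Psmd13 had log2 fold changes of −0.37 (SE 0.14) and −0.27 (SE 0.12). At the other end stood the 3 cap genes nearest to 0, the scaffold subunit Psmd1 at 0.016 (SE 0.15) and the lid subunits Psmd6 at −0.031 (SE 0.15) and Psmd11 at −0.039 (SE 0.13). Psmd1 was at 141, 164 and 145 CPM in EMT6-P and 169, 157 and 129 CPM in EMT6-PTR tumors, with the groups fully mixed. The sign of Psmd1, Psmd6 and Psmd11 changed when single tumors were left out, and that of Psmd1 also with scaling by library totals. Psmd2, Psmd3 and Psmd8 also overlapped, at −0.21, −0.31 and −0.19.

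Promoter letters of cap and core genes were also counted apart, without a test. The core of the ETS motif (CCGGAAG) was found in 35.5% of the members' windows, against 8.86% of all windows. It was in 9 of the 14 cap genes with a window and in 1 of the 11 core genes, where it lay in a second window of Psma6. The stretches of Psmd2, the cap gene with the highest level per length, and Psmd11, whose groups overlapped, show it in the same form as above. Psmd2 lies at chr16:20651532-20651651 (plus strand) and Psmd11 at chr11:80428495-80428614 (plus strand).
Psmd2: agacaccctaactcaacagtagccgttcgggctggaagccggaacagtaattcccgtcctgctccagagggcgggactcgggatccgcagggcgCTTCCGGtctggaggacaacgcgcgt
Psmd11: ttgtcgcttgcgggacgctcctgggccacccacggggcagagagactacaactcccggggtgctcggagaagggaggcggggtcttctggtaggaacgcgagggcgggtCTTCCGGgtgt
The capitals read CTTCCGG because the motif is on the opposite strand, at −26 in Psmd2 and −11 in Psmd11. Over the 17 cap members the median log2 fold change was −0.27, with 10 not overlapping and 3 at an unadjusted p under 0.05. Over the 14 core members it was −0.41, with 11 and 10. Of all genes, 11.8% were lower without overlap and 5.57% were lower at that threshold. Neither this difference between core and cap nor its relation to the ETS counts was tested.

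Of the 3 chaperones that help build the base of the cap and carry a Psmd symbol, Psmd5 and Psmd10 (gankyrin) did not overlap between groups. Psmd10 was at 45.9, 42.1 and 44.9 CPM against 40.1, 34.7 and 26.5 CPM and Psmd5 at 74.9, 68 and 63.6 CPM against 53.7, 61 and 62.7 CPM. Psmd9 had the widest spread, with 31.8, 33.2 and 31.1 CPM in EMT6-P and 26, 24.1 and 44.2 CPM in EMT6-PTR tumors. Replicates 1 and 2 lay below and replicate 3 above all parental tumors, and the log2 fold change of −0.027 (SE 0.25) turned positive without replicate 1 or 2. Psma8, the alpha subunit of testis, had 3 to 11 counts per library, and Psmb11, the catalytic subunit of the thymus, had 0 or 1, where a count of 0 allows up to 3 counts. These are the 2 members that did not pass the filter.

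Summed over each subcomplex, EMT6-PTR levels were 73.4% of the EMT6-P mean for the beta ring (1090.2 ± 33 CPM in EMT6-P and 800.3 ± 79.4 CPM in EMT6-PTR, SD, n = 3 each) and 79.7% for the alpha ring (1373 ± 55.4 and 1094 ± 78.2 CPM). The ATPases were at 83.4%, the other cap subunits at 85% and the chaperones at 85.6%. The groups did not overlap in any of these sums. For the other cap subunits they nearly met, with 1647.1 CPM in EMT6-PTR replicate 1 and 1648.8 CPM in EMT6-P replicate 3. All 34 members together summed to 5200.2 ± 203 CPM in EMT6-P and 4209 ± 299.9 CPM in EMT6-PTR tumors, which is 80.9%.

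**Figure D3:**
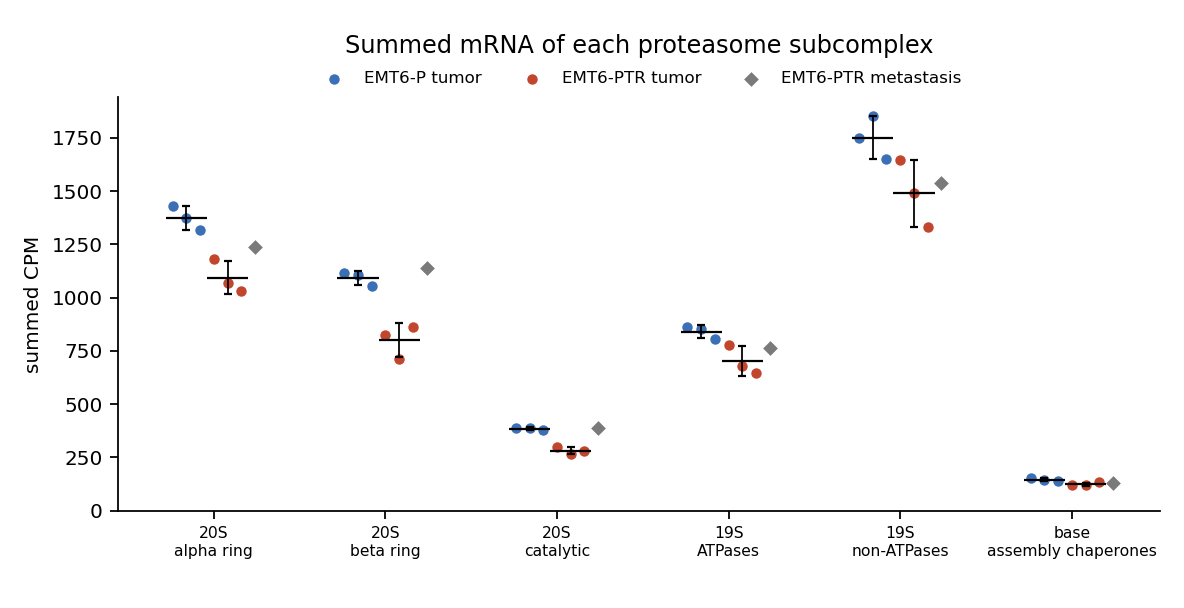
Points are summed CPM (vertical axis, from 0) of each subcomplex in each library, with EMT6-P in blue, EMT6-PTR in red and the metastasis as a grey diamond. Lines and bars are the mean and SD of 3 tumors, and the catalytic genes are also part of the beta ring. The red points lie below the blue points in each column, though for the 19S non-ATPases the highest red and lowest blue points are nearly level. The diamond of the beta ring (1140.5 CPM) lies above the points of all 6 primary tumors.

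Per kilobase of exon, the order of the subunit mRNAs was nearly the same in both groups (Spearman's rho 0.985 across the 34 members, which share libraries). Psma5 was the most abundant at 192 ± 32.3 CPM per kb in EMT6-P tumors (mean ± SD, n = 3), followed by Psma6 at 133 ± 9.09, Psmb4 at 108 ± 7.3 and Psmd2 at 103 ± 8.05 CPM per kb. Within the rings the lowest were Psma2 at 42.5 ± 0.413 and Psmb7 at 51.6 ± 0.968 CPM per kb. Among the ATPases, Psmc5 at 88.6 ± 4.65 was highest and Psmc2 at 26.6 ± 1.42 CPM per kb lowest. The lowest cap subunit was Psmd11 at 13.4 ± 0.689 CPM per kb. The chaperones were low, from 30.2 ± 1.35 for Psmd10 to 4.42 ± 0.146 CPM per kb for Psmd9, so that the tested members spanned 43.5-fold. With the longest transcript as the length, the order was similar (rho 0.888), and the mean level per length was 89.9 in place of 60.7 CPM per kb.

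The 3 EMT6-PTR tumors did not lie equally low. The median of the members' log2 differences from the EMT6-P mean was −0.20 in replicate 1, −0.39 in replicate 2 and −0.34 in replicate 3, and 25, 30 and 31 of the 34 members lay below all EMT6-P tumors, against 32.5%, 38.1% and 42.7% of all genes. Replicate 2 was the lowest of the 6 tumors for 17 members, replicate 3 for 14 and replicate 1 for 3. The median over the beta ring was −0.44, −0.52 and −0.33 in replicates 1 to 3. That over the cap was −0.13, −0.35 and −0.37, with 11, 13 and 15 of its 17 genes below all EMT6-P tumors. The coefficient of variation of a member had a median of 4.43% among EMT6-P and 11.8% among EMT6-PTR tumors. Other markers moved between these tumors. The summed level of 8 leukocyte markers was 2069.6, 1376 and 858 CPM in EMT6-PTR replicates 1 to 3, against 1492 to 1742 CPM in EMT6-P tumors, with at most 1 marker at 0 in a library. The 7 of them that were tested had median log2 differences of 0.16, 0.22 and −0.56 from the EMT6-P mean, so that sum and median differ in direction in replicate 2. The summed level of 6 skeletal muscle markers was 4020.4 CPM in replicate 1 and 8.3 and 3.83 CPM in replicates 2 and 3, where 2 and 1 markers were at 0, and 11 to 702 CPM in EMT6-P tumors. The 10 proliferation genes had median log2 differences of 0.034, −0.34 and −2.60 from the EMT6-P mean. Their part in the members' values was not tested. Replicate 3 stood apart by carcinoma, fibroblast and proliferation genes, and leaving it out gave a median of −0.29 over the members, with 32 of 34 below 0. Leaving out replicate 2, which held the excess of CT010467.1, gave −0.28, with 33 below 0.

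Whether the immunoproteasome replaced the constitutive catalytic genes at the mRNA level was examined by the ratio of each matched pair within a library, which does not depend on scaling. The log2 ratio of Psmb8 to Psmb5 was 2.18, 2.10 and 2.03 in EMT6-P tumors and 2.16, 2.71 and 1.90 in EMT6-PTR tumors. The EMT6-PTR tumors lay on both sides of the parental values, with means of 2.10 ± 0.074 and 2.26 ± 0.41 (SD, n = 3 each). The mean difference was 0.16 (two-sided exact permutation p = 0.8). For Psmb9 to Psmb6 the ratio was −0.29, −0.32 and −0.29 against −0.24, 0.30 and −0.56, a difference of 0.13 (exact permutation p = 0.7). Replicate 2 had the highest and replicate 3 the lowest ratio in both pairs, and without replicate 2 both differences became negative (−0.069 and −0.10). For Psmb10 to Psmb7 the difference was −0.26 (exact permutation p = 0.6). Adjusted over the 3 pairs each exact permutation p was 0.8, and 3 tumors against 3 cannot go below 0.1. None of the 3 ratios differed beyond the spread between tumors. Psmb8 itself was at 378, 338 and 325 CPM in EMT6-P and 253, 325 and 201 CPM in EMT6-PTR tumors.

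**Figure D4:**
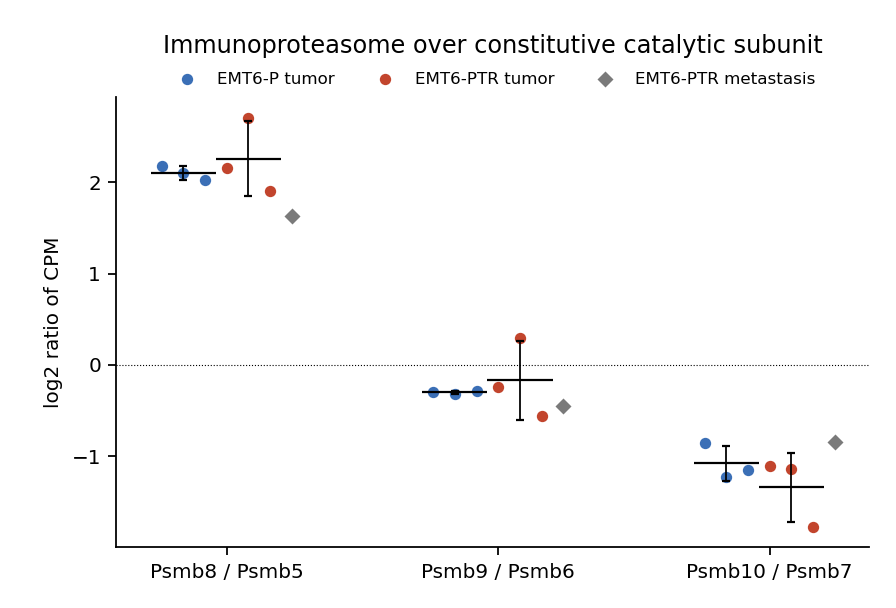
Points are the log2 ratio of CPM (vertical axis) of an immunoproteasome gene to the constitutive gene it replaces, 1 point per library, with the mean and SD of the 3 EMT6-P (blue) and 3 EMT6-PTR (red) tumors and the metastasis as a grey diamond. The red points straddle the blue points for Psmb8 and Psmb9, and the dotted line marks equal CPM.

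The resistant metastasis, a single library without a test, was compared with both groups of primary tumors. Its median log2 difference from the EMT6-P mean was −0.12, with 18 members below all EMT6-P tumors, against 43.2% of all genes, and 8 above them, against 39.8%. The share below was thus near that of all genes. Its median log2 difference from the EMT6-PTR mean was 0.18 over the 34 members, beside −0.016 over all genes. It lay above all 3 EMT6-PTR tumors for 20 members, against 25.8% of all genes, and below them for 1 (Psmd5), against 29% of all genes. None of the members was both outside that range and at least 2-fold from the mean, against 17.7% of all genes. All 7 beta ring genes lay above the EMT6-PTR tumors, with a median difference of 0.57. The largest differences were those of Psmb4 (252 CPM, 0.82 on the log2 scale), Psmb5 (93.5 CPM, 0.81) and Psmb3 (169 CPM, 0.70), and these 3 also exceeded every EMT6-P tumor. The cap was less even, with 8 of its 17 genes above all 3 EMT6-PTR tumors. Over all 34 members the lowest differences were those of Psmd14 (78.7 CPM, −0.30), the assembly chaperone Psmd10 (29.3 CPM, −0.18) and Psmc6 (105 CPM, −0.17). The summed level of 6 lung markers was 8618 CPM in the metastasis and at most 26.1 CPM in the primary tumors, where 0 to 5 of these markers were at 0. That of 5 erythroid markers was 7783 CPM against at most 378 CPM, and that of 4 endothelial markers was 606 CPM against at most 151 CPM. The 5 adipocyte markers summed to at most 30.2 CPM in any library. Carcinoma markers summed to 1320.4 CPM and fibroblast markers to 11859.9 CPM in the metastasis. The single carcinoma markers were split, and the sum does not show this. Of the 5, 3 lay above and 2 below all EMT6-P tumors, with a median log2 difference of 2.59 from the EMT6-P mean. The 10 proliferation genes had a median log2 difference of −2.40 from the EMT6-P mean. The part of these genes in the subunit levels was not tested.

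Genes that assemble the particle and switch its activity were also examined, where 47.7% of all genes were below 0 and 11.8% were lower without overlap. Of the 5 assembly chaperones of the core (Psmg1 to Psmg4 and Pomp), all were below 0, 4 had groups without overlap, and the median log2 fold change was −0.49. Pomp, which joins the half-built cores, was at 172, 159.6 and 162 CPM in EMT6-P and 118, 109 and 92.2 CPM in EMT6-PTR tumors, with a log2 fold change of −0.63 (SE 0.14, adjusted p = 0.421 in edgeR's quasi-likelihood test). Psmg3 had −0.68 (SE 0.22). The 5 interferon-inducible genes Psmb8, Psmb9, Psmb10, Psme1 and Psme2 had a median of −0.42, with all below 0 and 4 without overlap. Psmb8 counted as without overlap only narrowly, at 324.94 CPM in EMT6-PTR replicate 2 and 325.16 CPM in EMT6-P replicate 3. The lowest of the 5 genes were Psmb10 at −0.69 (SE 0.27) and the activator subunit Psme2 at −0.56 (SE 0.23). The other activators Psme3 and Psme4 and the inhibitor Psmf1 overlapped between groups, at −0.24, 0.31 and 0.050. Of 9 cap subunits and associated proteins with other symbols, 7 were below 0, the median was −0.13, and the small cap subunit Sem1 (−0.35, SE 0.13) and the ubiquitin receptor Adrm1 (−0.23, SE 0.12) had groups without overlap.

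Regulators of subunit transcription had values on both sides of 0. A mixed list of 13 genes, wider than NRF1 and its processing, was used (Nfe2l1, Nfe2l2, Ddi2, Ngly1, Maff, Mafg, Mafk, Keap1, Nfya, Nfyb, Nfyc, Foxm1, Zfand5). Of these 13 genes, 7 were below 0, against 47.7% of all genes, and the median was −0.083, a sign that turned without EMT6-PTR replicate 3 (0.088). Nfe2l1 itself was at 346, 419 and 372 CPM in EMT6-P and 419, 450.0 and 295 CPM in EMT6-PTR tumors, which overlapped. Ddi2, the protease that cuts NRF1 into its active form, was higher in every EMT6-PTR tumor, at 62.1, 57.1 and 56.2 CPM against 78.9, 71.7 and 72.9 CPM, with a log2 fold change of 0.35 (SE 0.12, adjusted p = 0.427 in edgeR's quasi-likelihood test). Nfyb was also higher without overlap, with a log2 fold change of 0.097 (SE 0.11), a pattern held by 9.52% of all genes. Ngly1, which removes sugar chains from NRF1, had 0.63 (SE 0.37), with the groups overlapping. Of 16 genes for ubiquitin, its activating enzymes and shuttle factors, 10 were below 0, against 47.7% of all genes, with a median of −0.13.

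Lower values in EMT6-PTR tumors were also measured for other large complexes. Beside the counts below, 47.7% of all genes were below 0 and 11.8% were lower without overlap. The 8 subunits of the chaperonin CCT, which folds actin and tubulin, had a median log2 fold change of −0.33, with all 8 below 0 and 4 without overlap, led by Cct3 at −0.68 (SE 0.21). Of 80 cytosolic ribosomal protein genes 78 were tested, and 76 were below 0 and 38 without overlap, with a median of −0.41. Rps27l had the smallest p-value, at −0.67 (SE 0.13), ahead of Rpl35 at −0.55 (SE 0.14). The tumors differed in which complex was low. Ribosomal protein genes had median differences of −0.58, −0.57 and −0.13 from the EMT6-P mean in EMT6-PTR replicates 1 to 3, and CCT genes −0.16, −0.26 and −0.67. The 10 proliferation genes had a median log2 fold change of −0.57, with 3 without overlap, and −0.11 without EMT6-PTR replicate 3. Tyms at −1.03 (SE 0.49) and Pcna at −0.61 (SE 0.34) had the smallest p-values among them. With TMM, DESeq2 or total-count scaling the medians of the proteasome, CCT, ribosomal and assembly lists stayed below 0.

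**Figure D5:**
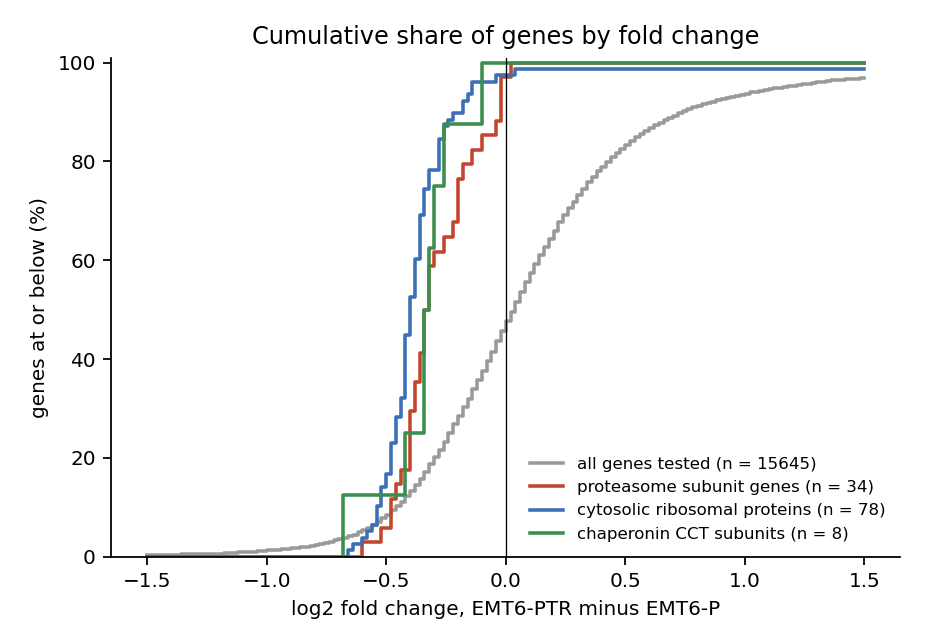
Lines give the cumulative share of genes (vertical axis, percent) at or below each log2 fold change, EMT6-PTR over EMT6-P (horizontal axis, drawn from −1.5 to 1.5). From −0.48 upward the lines of proteasome, ribosomal and CCT genes lie above the grey line of all 15645 genes, of which 47.7% were below 0. The lines cross further left. At −0.5 the proteasome line is at 5.88% and the grey line at 8.55%. At −0.7 the lines of all these lists are at 0% and the grey line at 3.59%.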

How the data were processed

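RNA sequencing gave 6 libraries of primary tumor tissue, 3 per group (EMT6-P and EMT6-PTR), and 1 of a metastasis, grouped by the sample labels. Replicates may be technical. The authors prepared stranded libraries from polyadenylated RNA, checked reads with FastQC 0.11.5, aligned them to GRCm38 with STAR 2.6.0a and GENCODE M16, and deposited estimated counts per gene from RSEM 1.3.1, neither filtered nor scaled. Reads that fit several close copies are divided by RSEM, which leaves ribosomal protein genes and subunits with pseudogenes uncertain. All 7 columns were used (0 columns without a sample).

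Gene symbols and positions came from GENCODE M21, which held 53360 of 53465 identifiers, and all 194 list entries were matched. Counts were rounded, filtered with filterByExpr, scaled to the upper quartile and compared in edgeR 4.0.16 (glmQLFit, glmQLFTest, R 4.3.3) at a Benjamini-Hochberg threshold of 0.05 over 15645 genes. The SE is the log2 fold change divided by the square root of F. Differences of single libraries are of log2 CPM with a prior count of 2. Level per length is CPM per kilobase of merged exons. Ratios were compared by exact two-sided permutation tests over 20 assignments.

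Named members are the catalytic genes, the 5 largest rises and falls, the 3 smallest p-values, all with non-overlapping groups, the highest and lowest per length by role, those not tested, and the 3 farthest from the EMT6-PTR mean in the metastasis in each direction. Of other lists, up to 2 genes with the smallest p-values are named. Other genes were named after their values were seen. Values of some listed genes are not reported here. The members and lists were chosen with earlier results of these data known. The fits were tested on simulated data with larger changes than any member had. That simulation does not tell how often changes of the members' size are found. Alternatives were TMM, library totals, DESeq2 1.42.0, limma-voom (limma 3.58.1), no filter, 10 counts in every tumor, the metastasis as an additional group, the replicate number as a block, leaving out each tumor, a prior count of 0.5 and the longest transcript as the length. Tables and plots were made with Python 3.11.15, pandas 2.3.3 and matplotlib 3.10.9. Promoter sequences are from RefSeq (GRCm38.p6).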

Additional observations from a re-analysis of the deposited data

How the results depend on the processing

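Of 476 values of single members under 14 alternatives, 466 kept the sign of the reported value, and 30 of the 34 members never changed sign. The 10 that turned belonged to 4 members near 0. With 1 tumor left out, the log2 fold changes of these ran over Psmd1 −0.073 to 0.12, Psmd6 −0.10 to 0.068, Psmd9 −0.36 to 0.13 and Psmd11 −0.087 to 0.035, and with library totals alone Psmd1 was at −0.0014. The members' median log2 fold change lay between −0.35 and −0.32 in the other fits and between −0.40 and −0.28 when 1 tumor was left out. The number of members called was 2 in DESeq2 and 0 in each other fit, those leaving out a tumor included. Of all genes, DESeq2 called 281 and the other fits, including those leaving out a tumor, 0. The number of members with an unadjusted p under 0.05 was 7 with library totals and 3 to 17 with 1 tumor left out. The members without overlap numbered 21 with TMM, 22 with DESeq2 size factors and 19 with library totals, where the share of all genes was not counted. The cause of these changes was not tested.

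Labels give both groups the replicate numbers 1 to 3. Across genes, the deviations of tumors with the same number had correlations of 0.26, 0.25 and 0.04, and those with different numbers −0.29 to 0.098. EMT6-P replicates 1 and 2 correlated best with their own number. Such correlations cannot decide whether the numbers pair the samples, and the main test was unpaired. With the replicate number as a block the median was −0.34, 33 members were below 0, and 7 in place of 13 had an unadjusted p under 0.05, beside 4.36% of all genes that were lower at that threshold. EMT6-P replicate 3 did not correlate best with its own number.

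With 1 tumor left out, the difference in log2 ratio ran over −0.069 to 0.33 for Psmb8 to Psmb5 and −0.10 to 0.33 for Psmb9 to Psmb6, both negative without EMT6-PTR replicate 2, and over −0.38 to −0.045 for Psmb10 to Psmb7. The metastasis lay above the EMT6-PTR tumors for 16 to 22 members over its alternatives, with a median difference of 0.12 to 0.25. The share of all genes was not counted under these alternatives. The mean level per length was 89.9 CPM per kb with the longest transcript. The tested members held at least 433 counts in each library, while Psma8 and Psmb11 were too low to compare.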

Other observations

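Annotated pseudogenes resemble some members. Psmb5-ps held at most 33.0 estimated counts per library, and Psmb6-ps, Psmb6-ps2 and Psmb7-ps2 at most 4 counts. The smallest count of a tested member in any library was 433.

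Across the 34 members, which share their libraries, the log2 differences from the EMT6-P mean in EMT6-PTR replicates 1 and 2 had a Pearson r of 0.68, those in replicates 2 and 3 an r of 0.20 and those in replicates 1 and 3 an r of 0.01. As examples chosen after their values were seen, Psmd14 differed by −1.04 in replicate 3 and Psmd9 by 0.46 in the same tumor.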
